A study of Mus musculus with 8 samples.

Results

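The 2'-5'-oligoadenylate synthetase (Oas) family was followed in newborn mouse liver through 17 array probes for 12 genes, out of 55681 non-control probes. Probes were chosen by the gene name printed in the array files: 9 genes were listed by name (Oas1a, Oas1b, Oas1c, Oas1f, Oas1g, Oas2, Oas3, Oasl1 and Oasl2) and 3 more (Oas1d, Oas1e and Oas1h) shared the same name stem. RNA came from wild-type pups and from littermates whose maternal chromosome lacked the miR-379/miR-410 microRNA cluster, called knockout here, with 4 arrays per genotype. All pups were C57BL/6J, were delivered by caesarean at E19.5 and were killed 4 h later. The deletion was constitutive, so it was not limited to liver cells, and pieces of the large lobe were used whole. In such bulk RNA, fewer cells of a type and less RNA per cell cannot be told apart.

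Oas enzymes sense double-stranded RNA of viral or cellular origin and join ATP into short 2'-5'-linked oligoadenylates. These oligoadenylates act as messengers of the antiviral response. The genes are held low in resting cells and are induced by type I and type III interferon through a complex with STAT2 and IRF9 that binds interferon-stimulated response elements. Mouse carries many tandem copies of Oas1, of which several have lost catalytic activity, single Oas2 and Oas3 genes with duplicated or triplicated catalytic units, and the Oas-like genes Oasl1 and Oasl2, whose proteins end in ubiquitin-like domains. Oasl1 is known as a translational brake on Irf7, the factor that amplifies interferon production.

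All 12 genes lie on chromosome 5 in the mm9 coordinates of the array files. The probes of the Oas1, Oas2 and Oas3 genes spanned chr5:121180343-121371654, from Oas2 at the low end to Oas1d at the high end. The probes of Oasl2 (chr5:115362168-115362227) and Oasl1 (chr5:115387861-115387920) sat together in a separate place on that chromosome. Whether a probe lies in a coding exon or an untranslated region was not analysed here. A promoter window was found for 8 of the 12 genes in a RefSeq table of GRCm38.p6, and Oas1b, Oas1d, Oas1e and Oas2 had no entry. Each window runs from 250 bases before to 50 bases after the start of the gene. The letters GAAA, then any 2 bases, then GAAA, a core of the interferon-stimulated response element, were searched on both strands. They were in the windows of Oas1a, Oas1c, Oas1g and Oas3, and in 3.44% of 32851 promoters of the same length. The stretches around these matches are shown because they hold the matched letters, which describe the sequence and not a tested site, with the matched letters in capitals, 5' to 3' on the strand of the gene (minus for all 4).
Oas1a chr5:120907526-120907570: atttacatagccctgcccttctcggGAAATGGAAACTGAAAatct
Oas1g chr5:120887614-120887656: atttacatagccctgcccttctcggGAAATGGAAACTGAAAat
Oas1c chr5:120812588-120812653: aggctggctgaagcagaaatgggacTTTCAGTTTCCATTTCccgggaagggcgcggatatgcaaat
Oas3 chr5:120777700-120777759: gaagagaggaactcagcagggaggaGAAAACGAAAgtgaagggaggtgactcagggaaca
In Oas1a, Oas1g and Oas1c, 2 matches overlapped in the capitals, and in Oas1c they lay on the opposite strand. The match of Oas1a ended 5 bases before the start of the gene and that of Oas1g 3 bases before it. The Oas1a and Oas1g windows were identical at 207 of 298 positions aligned without gaps (69.5%). The letters were not found in the windows of Oas1f, Oas1h, Oasl1 and Oasl2. A second motif, TTCNNNGAA, the core bound by STAT dimers, was found on either strand in Oas1a alone of the 8 windows and in 8.30% of all promoters.

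The probes themselves are 60 bases long, and paralogues resemble each other within them, which bears on how far the signals below belong to single genes. The best-matching 30 bases of different genes are shown, with the differing bases in capitals.
Oas1c probe: tgagatttgaagcactGaattaaaTcaCaa
Oas1d probe: tgagatttgaagcactAaattaaaGcaAaa
Oas1a probe A_55_P1998943: tgtccacctgttggAaggttctgtcTGaCA
Oas1f probe: tgtccacctgttggGaggttctgtcCAaTG
The Oas1c and Oas1d stretches matched at 27 of 30 positions, and those of Oas1a and Oas1f at 25 of 30. The array files listed a transcript of Oas1g as a further target of this Oas1a probe. The values of Oas1a, Oas1c, Oas1d and Oas1f are therefore uncertain as measures of single genes, since signal from a paralogue could not be separated. For Oasl1, on which the comparison below turns, the probe begins with the following 30 bases.
Oasl1 probe: aaggtaggaggggatcaagttcctttcaaa
Of the other family probes, none matched its best 30-base stretch at more than 18 positions.

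Depth was alike across the arrays: between 58.6% and 66.2% of spots were well above background, and no spot was saturated. The number of arrays limits the precision. Mirg, the host noncoding RNA of the deleted cluster, checked the labels. Its level was 2.42 ± 0.05 on the wild-type arrays and -0.29 ± 0.33 on the knockout arrays (log2 level, SD, n = 4), with no overlap. Hepatocyte genes such as Alb and Afp were high in both groups, and 7 of 8 hepatocyte markers were measured at a mean log2 level of 8.35 to 8.51 in wild-type and 8.43 to 8.46 in knockout arrays. Replicate 4 of each group was close to a weighted sum of the other arrays of its group. Over the 13 measured Oas probes, such a sum missed wild-type 4 by a median of 0.06 log2 and knockout 4 by 0.07, against 0.16 to 0.42 for the other 6 arrays. Wild-type 4 lay inside the range of the other wild-type arrays at 12 of the 13 probes and knockout 4 at 10 of 13, against 3 to 7 for the others. The series text gives 4 biological replicates per genotype. If replicate 4 is not independent, the p-values below are too small, so values without both replicate 4 arrays are given beside them.

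Of the 17 probes, 13 probes for 10 genes passed the filter of 4 or more arrays well above background and entered the test. All 13 had a lower mean in knockout liver, where 44.2% of the 33752 probes tested had one. In 9 of the 13, every knockout array was below every wild-type array, which held for 4.23% of all probes tested. Also in 9 of the 13, the mean was lower by at least 0.5 log2, which held for 3.03% of all probes. The median difference was -0.71 log2 over the family and 0.02 over all probes. With limma across all probes, 10 of the 13 were lower at an unadjusted p under 0.05, against 6.15% of all probes. After Benjamini-Hochberg adjustment over all probes, 1 of the 13 passed 0.05 and was lower (Oasl1), against 0.175% of all probes, and none was higher, against 0.0296%. Without both replicate 4 arrays, 10 probes again had an unadjusted p under 0.05 and were lower (3.64% of all probes), and none passed after adjustment (0.0326% of all probes).

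The count of 9 probes without overlap was the same after quantile normalization (4.60% of all probes) and after centring on the median (4.00%). It was 10 after normexp background correction (5.23% of all probes). It was 6 in the processed signals before any scaling (1.26% of all probes), where knockout 2 stood above wild-type 3 in the second Oas1a probe, Oas2 and Oasl2. The direction of all 13 was kept under quantile normalization, median centring and normexp background correction. That of the 11 found in the deposited value table was kept after quantile normalization of its values. Levels are log2 of the processed signal minus the 75th percentile of the array. Processed signals are linear intensities in arbitrary units, before that shift. Each percentage of the wild-type level is computed from the difference in means of the log2 levels. A difference is knockout minus wild-type with its standard error (SE), and the exact permutation test over 70 assignments of the arrays, two-sided, cannot give a p below 0.0286.

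**Figure D1:**
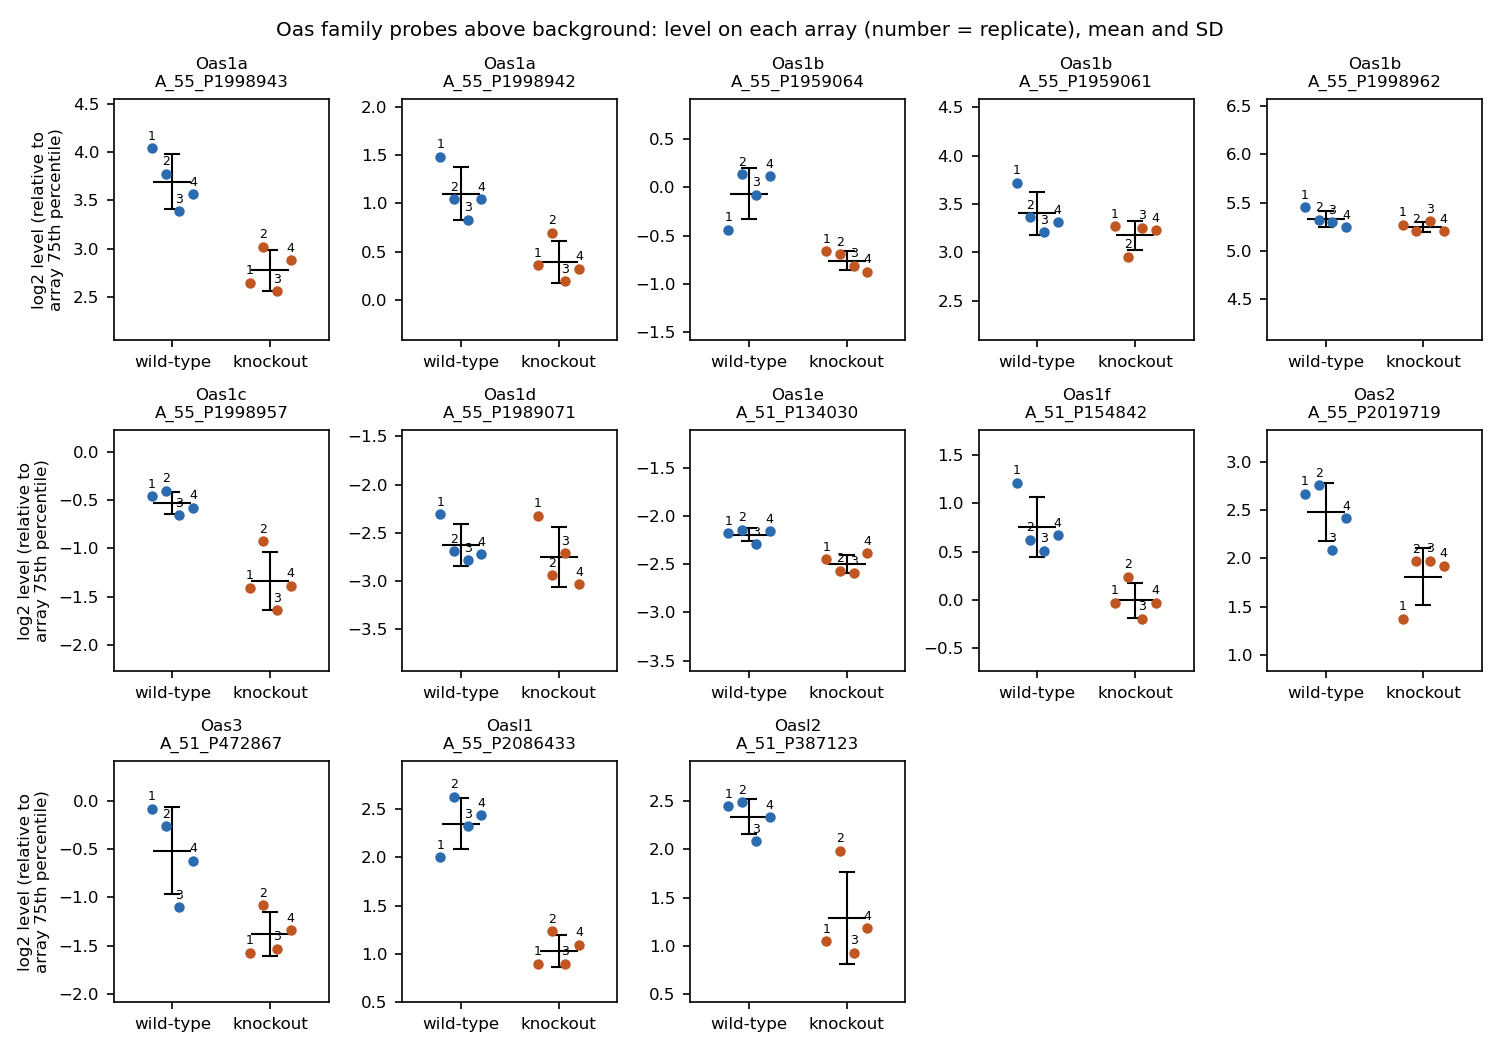
Log2 level (log2 processed signal minus the 75th percentile of the array) of each measured Oas family probe on the 8 arrays, with points for arrays and bars for the mean and SD of 4 wild-type and 4 knockout samples. The groups do not overlap in 9 of the 13 panels, and the widest distance is that of Oasl1.

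The 2 Oas-like genes had the largest differences of the family. Oasl1 fell in knockout liver to 40.2% of the wild-type level. Its processed signals were 2160.0, 2642, 2251 and 2420.5 in wild-type 1 to 4, and 921, 1231, 922 and 996 in knockout 1 to 4. All knockout values were far below all wild-type values and knockout 2 was the highest knockout array. The log2 level was 2.35 ± 0.26 in wild-type and 1.03 ± 0.16 in knockout (SD, n = 4), a difference of -1.31 (SE 0.14, 95% interval -1.64 to -0.99, limma adjusted p = 0.0119). Without both replicate 4 arrays the difference was -1.31 and the limma adjusted p was 0.206. Leaving out wild-type 3, wild-type 4, knockout 3 or knockout 4 alone moved the limma adjusted p to between 0.053 and 0.057, with differences of -1.34 to -1.27.

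Oasl2, which unlike Oasl1 makes oligoadenylates, gave 2936, 2402, 1907 and 2256 in wild-type 1 to 4. In knockout 1 to 4 it gave 1023, 2074, 942 and 1058. In these signals knockout 2 lay inside the wild-type range, while the other knockout arrays lay close together and far below it. The log2 levels were 2.34 ± 0.18 and 1.29 ± 0.48 (SD, n = 4), a difference of -1.05 (SE 0.22, 95% interval -1.56 to -0.54, limma adjusted p = 0.120). After scaling the groups did not overlap, with knockout 2 at 1.99 and wild-type 3 at 2.08. Without knockout 2, Oasl2 and Oas1c passed the adjusted threshold beside Oasl1, so that 3 of the 13 probes were called lower, against 0.190% of all probes.

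Oas1a, an active synthetase, was read by 2 probes that do not overlap each other, and neither passed the adjusted threshold. The brighter, A_55_P1998943 (chr5:121346735-121346794, minus strand), gave 8894, 5864, 4716 and 5282 in wild-type 1 to 4 and 3095, 4245, 2908 and 3438 in knockout 1 to 4. All 4 knockout values were below all 4 wild-type values, and wild-type 1 was well above the rest. The knockout level was 53.0% of wild-type, a difference of -0.92 (SE 0.16, 95% interval -1.28 to -0.55, limma adjusted p = 0.0774). The dimmer, A_55_P1998942 (chr5:121348338-121348397), gave 1505, 881, 800 and 918 in wild-type and 632, 847, 564 and 584 in knockout arrays. Its knockout level was 61.3% of wild-type, a difference of -0.71 (SE 0.16, limma adjusted p = 0.137). Both probes were highest in wild-type 1 and, among the knockout arrays, highest in knockout 2. The difference in change between them was -0.21 log2 (exact permutation p = 0.0571, adjusted over 4 probe pairs 0.114).

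Oas1f (chr5:121307929-121307988, plus strand) gave 1249, 658, 640 and 710 in wild-type 1 to 4 and 483, 618, 431 and 457 in knockout 1 to 4. The groups did not overlap, though wild-type 3 and knockout 2 were close in signal. The knockout level was 59.2% of wild-type, a difference of -0.76 (SE 0.16, limma adjusted p = 0.126). Oas1c (chr5:121250208-121250267, minus strand) gave 391, 323, 285 and 299 in wild-type 1 to 4 and 186, 275, 158 and 178 in knockout 1 to 4. Here too knockout 2 was the highest knockout array and the groups did not overlap. The knockout level of Oas1c was 56.9% of wild-type, a difference of -0.81 (SE 0.15, limma adjusted p = 0.0858).

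Oas1e and Oas1d were dim. Oas1e (chr5:121236573-121236632, minus strand) gave 119, 96.8, 91.5 and 100.1 in wild-type 1 to 4 and 90.5, 88.2, 81.9 and 89.1 in knockout 1 to 4. The groups did not overlap, but the distance between them was small: the knockout level was 81.0% of wild-type, a difference of -0.30 (SE 0.08, limma adjusted p = 0.178). Oas1d (chr5:121371595-121371654, plus strand) gave 109, 66.3, 65.5 and 67.9 in wild-type and 98.6, 68.4, 75.4 and 57.1 in knockout arrays. These overlapped throughout, and the difference was -0.13 (SE 0.17, 95% interval -0.52 to 0.26, limma adjusted p = 0.780).

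Oas1b is annotated as a transcribed pseudogene in the RefSeq table, and in most laboratory strains its coding frame is interrupted. Its 3 probes did not give a common picture. A_55_P1959064 (chr5:121273890-121273949, plus strand) gave 397, 470.5, 426 and 485 in wild-type 1 to 4 and 312, 324, 281 and 254 in knockout 1 to 4. The groups did not overlap, and the knockout level was 61.8% of wild-type, a difference of -0.69 (SE 0.13, limma adjusted p = 0.0982). Without wild-type 1 this probe differed by -0.82 and passed the threshold (limma adjusted p = 0.0188), so that 2 of the 13 probes were then called lower, against 0.258% of all probes.

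The other 2 Oas1b probes overlap each other by more than 30 bases, so they share much of their sequence. A_55_P1998962 (chr5:121274109-121274168) gave 23582, 17134, 17637 and 16983 in wild-type and 19052, 19250, 19521 and 17190 in knockout arrays. Wild-type 1 was the highest array, and the ranges of the groups overlapped. The difference was -0.08 (SE 0.07, 95% interval -0.25 to 0.08, limma adjusted p = 0.647). A_55_P1959061 (chr5:121274126-121274185) gave 7101, 4411, 4151 and 4445 in wild-type and 4768, 4058, 4717 and 4372 in knockout arrays, again overlapping. Its difference was -0.22 (SE 0.13, limma adjusted p = 0.500). The change at A_55_P1959064 exceeded that at A_55_P1998962 by -0.61 log2 (exact permutation p = 0.0286, adjusted over 4 probe pairs 0.114), so a difference in change between probes of Oas1b did not pass after adjustment.

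**Figure D2:**
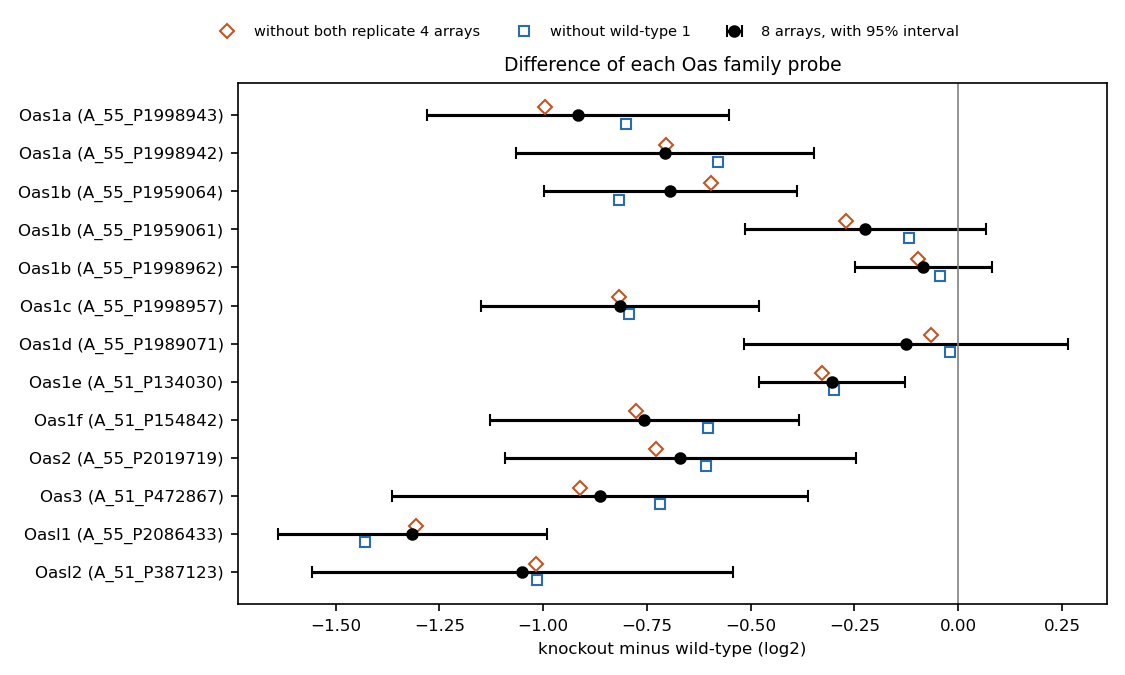
Difference in log2 level, knockout minus wild-type, for each measured Oas family probe, with dots for all 8 arrays, bars for the 95% interval, diamonds without both replicate 4 arrays and squares without wild-type 1. All 13 dots lie below 0, and the intervals of Oas1d and of the overlapping pair of Oas1b probes include 0.

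Oas2, a membrane-associated synthetase that makes longer oligoadenylates, was read by 1 probe (chr5:121180343-121180402, minus strand). It gave 3430, 2892, 1910 and 2385 in wild-type 1 to 4 and 1282, 2056, 1943 and 1769 in knockout 1 to 4. In signal, knockout 2 and knockout 3 stood above wild-type 3, and after scaling the groups were just apart. The knockout level was 62.9% of wild-type, a difference of -0.67 (SE 0.19, limma adjusted p = 0.214). Oas3, the synthetase with the highest affinity for long double-stranded RNA, was also read by 1 probe (chr5:121203598-121203657, minus strand). It gave 509, 356, 209 and 290 in wild-type 1 to 4 and 166, 248, 171 and 184 in knockout 1 to 4. Wild-type 3 and knockout 2 crossed, at -1.10 and -1.08 log2. The knockout level of Oas3 was 55.0% of wild-type, a difference of -0.86 (SE 0.22, exact permutation p = 0.0571, limma adjusted p = 0.179).

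The remaining 4 probes were not measured. Both Oas1g probes, with signals of 2.03 to 7.39, were not well above background on any array. The array annotation listed a transcript of Oas1a as a further target of A_55_P1998979, 1 of the Oas1g probes. It stayed near background although the Oas1a probes gave 564 to 8894. Whether it detects its listed targets was not tested, so its signal says little about Oas1g. Of the Oas1h probes, A_52_P313013 reached 2.16 to 3.25 and never stood well above background, and A_55_P2149492 did so only on wild-type 3, at 19.4 against 2.56 to 3.93 elsewhere. No fold is given for these genes. The Oas1g promoter window, shown above, carries the same capitals as that of Oas1a.

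For each of the 10 measured genes the brightest measured probe was taken, which for Oas1b was A_55_P1998962. Averaged over these genes, each centred on its own mean, the family stood at 0.52, 0.45, 0.12 and 0.30 log2 in wild-type 1 to 4. In knockout 1 to 4 it stood at -0.42, -0.15, -0.46 and -0.35. Wild-type 1 was the highest and wild-type 3 the lowest wild-type array, while knockout 2 was the highest knockout array. Once group means were taken out, Oas3 and Oas1a followed the mean of the other 9 genes over the 8 arrays most closely (r = 0.95 and 0.93). Oas1c, Oasl2 and Oas1f followed it with r of 0.77, 0.75 and 0.74, and Oas2 with 0.57. Oas1e (0.22), Oas1b (0.18), Oasl1 (0.03) and Oas1d (-0.10) did not. These correlations describe 8 arrays of 2 groups, which also share array-wide shifts. Oasl1 was lowest in wild-type 1 among the wild-type arrays, the array in which Oas1a, Oas1f and Oas3 were highest.

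**Figure D3:**
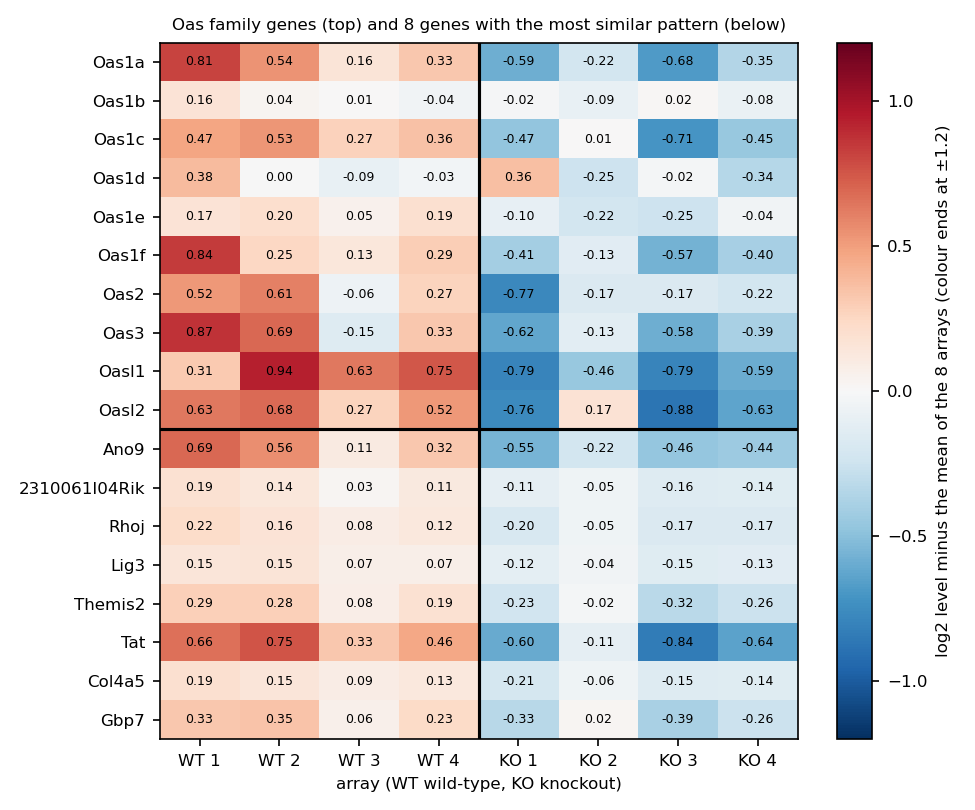
Log2 level, 1 probe a gene and centred on the mean of the 8 arrays, with arrays in columns and the colour scale ending at 1.2 in either direction. The top rows are the measured Oas family genes. Below the line are the 8 genes picked for the pattern most like the family mean. Over the family rows, knockout 2 is the palest knockout column and wild-type 3 the palest wild-type column, with family means of -0.15 and 0.12.

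Outside the family and its pathway, 8 of 23526 genes had the array pattern most like the family mean by Pearson correlation over 8 arrays: Ano9, 2310061I04Rik, Rhoj, Lig3, Themis2, Tat, Col4a5 and Gbp7, with r of 0.98 to 0.99. With group means taken out, r was 0.86 to 0.96. Ano9 differed by -0.84 (SE 0.14, limma adjusted p = 0.0660), and Tat, a hepatocyte enzyme of tyrosine breakdown, by -1.10 (SE 0.16, limma adjusted p = 0.0535). Gbp7, an interferon-induced GTPase, differed by -0.48 (SE 0.11, limma adjusted p = 0.147). None of the 8 passed the threshold. They were picked for likeness to a family mean that itself differs between the genotypes. Their lower means in knockout therefore follow from the choice and are not a separate finding.

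Of 68 listed genes of the pathway around Oas, 61 were measured, with 43 lower in mean (44.2% of all probes) and a median difference of -0.23. Of these 61, 25 were lower and 2 higher at an unadjusted p under 0.05 (6.15% and 6.25% of all probes), and groups did not overlap in 20 lower and 1 higher gene (4.23% and 4.21%). After adjustment 2 fell and 0 rose (0.175% and 0.0296% of all probes). Both were lost with the replicate number as a block and without both replicate 4 arrays. For the counts of each list below, the shares over all probes are the same. They are 44.2% lower in mean, 6.15% lower at an unadjusted p under 0.05 and 0.175% called lower.

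Downstream of Oas, neither of 2 listed genes was called. Pde12, which degrades 2'-5' oligoadenylates, differed by 0.09 (SE 0.13) and Abce1, a ribosome recycling factor, by 0.02 (SE 0.08). Both overlapped between groups.

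Among 8 measured sensors of nucleic acid, 7 were lower in mean and 6 of them at an unadjusted p under 0.05, with none called. Ddx58, the gene of RIG-I, differed by -0.47 (SE 0.08, limma adjusted p = 0.0668). Zbp1, a sensor of Z-form nucleic acid, differed by -0.97 (SE 0.17, limma adjusted p = 0.0777). Ifih1, the gene of MDA5, and Dhx58, the gene of LGP2, differed by -0.53 and -0.71. Adar, an editor of double-stranded RNA, and Eif2ak2, the kinase PKR, differed by -0.65 and -0.43. Tlr7, an endosomal sensor, and Mavs, the adaptor shared by RIG-I and MDA5, differed by -0.17 and 0.04. Tlr3 was well above background on too few arrays to be tested.

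The interferons themselves were dim or unmeasured: Ifnb1, Ifna4 and Ifne were not well above background on any array. None of the 5 measured ligands was called. Ifna2, Ifnl3, Ifnk and Ifna1 differed by -0.19, 0.12, 0.10 and -0.04. None of the 11 receptor and STAT genes was called either. Stat2, part of the factor that binds interferon-stimulated response elements, differed by -0.54 (SE 0.13, limma adjusted p = 0.155), with no overlap. Its partner Irf9 differed by -0.34 (SE 0.16). The receptor subunits Ifnar1, Ifnar2, Ifngr1, Ifngr2, Ifnlr1 and Il10rb differed by -0.03, 0.12, 0.07, 0.04, 0.34 and 0.19. The kinases Jak1, Jak2 and Tyk2 differed by 0.10, 0.09 and -0.13.

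Of the 7 interferon regulatory factors, 6 were lower in mean. Irf7, whose translation Oasl1 restrains, differed by -0.87 (SE 0.24, limma adjusted p = 0.210), with no overlap. Irf3, Irf8 and Irf5 differed by -0.13 to -0.17. Of 7 negative regulators, 5 were lower in mean, led by the nuclease Trex1 (-0.53, SE 0.10, limma adjusted p = 0.0896) and by Socs1 (-0.43), Samhd1 (-0.30) and Usp18 (-0.30). Of 5 measured genes of DNA sensing or of relatives of the Oas fold, 3 were lower in mean. Cgas, a DNA sensing enzyme with the same fold as Oas, differed by -0.26 (SE 0.16). Mab21l2, listed for its fold, differed by -0.23, Ikbke by 0.38 and Tmem173 by -0.16.

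The other antiviral effectors had the lowest median of the pathway lists. Of 16 measured, 15 were lower in mean and 13 of them at an unadjusted p under 0.05, with a median of -0.61. The 2 called genes of the pathway were here: Ifi44 fell by 1.54 (SE 0.19, limma adjusted p = 0.0261) and Ifi27 fell by 0.61 (SE 0.07, limma adjusted p = 0.0134). Ifit3, which binds viral RNA together with Ifit1, differed by -1.33 (SE 0.25, limma adjusted p = 0.0916), and Mx2, an antiviral GTPase, by -0.76 (SE 0.12, limma adjusted p = 0.0645).

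**Figure D4:**
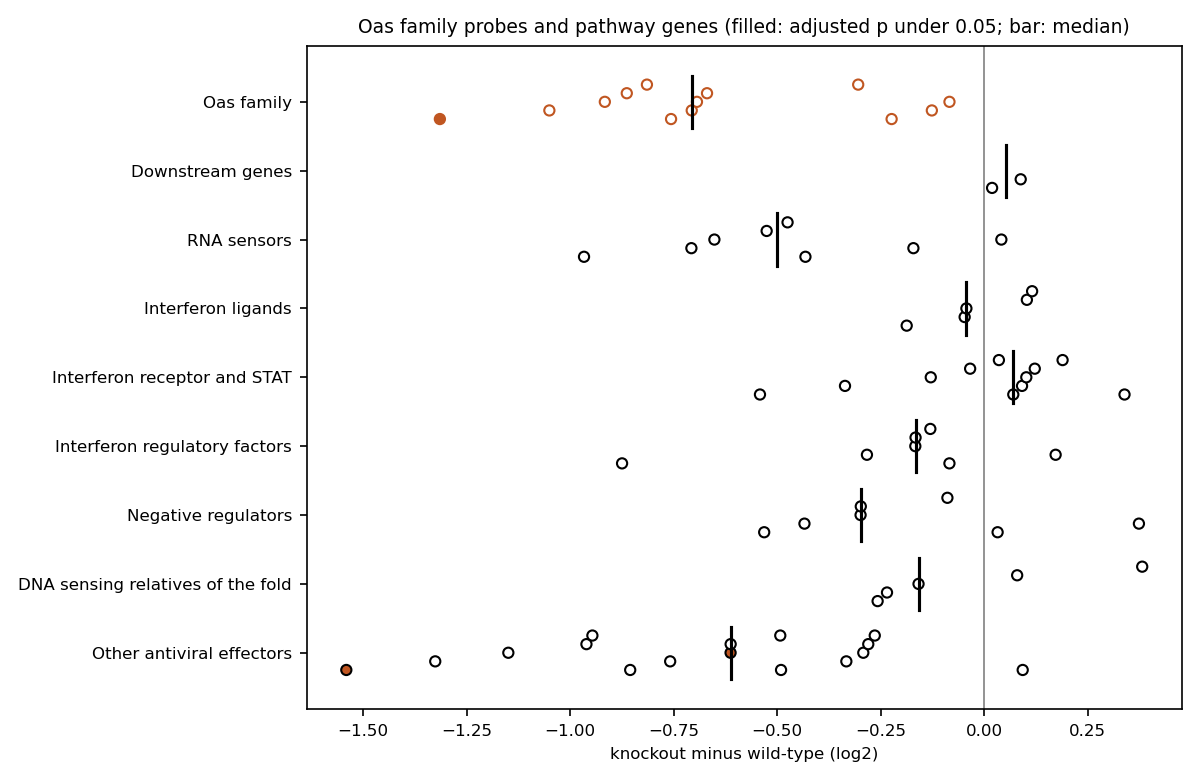
Difference in log2 level, knockout minus wild-type, of the measured pathway genes by list, 1 probe a gene. The 13 measured Oas family probes are shown for comparison, and filled points passed an adjusted p of 0.05. The antiviral effectors and the sensors lie mostly left of 0, while the 2 downstream genes lie near it.

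Markers of other cell types were set beside these values. Of 7 lymphocyte markers, 5 were lower in mean, and their mean log2 level ran from -0.06 to 0.17 over the wild-type arrays and from -0.36 to -0.19 over the knockout arrays. Ms4a1, the B cell antigen CD20, fell by 0.89 (SE 0.11, limma adjusted p = 0.0261, and 0.359 without both replicate 4 arrays), and Cd3g, of the T cell receptor complex, differed by -0.76 (SE 0.16, limma adjusted p = 0.120), with no overlap. Klrb1c, Cd79b, Cd79a, Cd3e and Nkg7 differed by -0.46, -0.31, -0.26, 0.02 and 0.02, and their groups overlapped. The 5 markers of plasmacytoid dendritic cells, a main source of type I interferon, ran from 2.41 to 2.50 and from 2.16 to 2.30. Within that list Ly6d differed by -0.72 and the interferon-inducible Bst2, also listed as an antiviral effector, by -0.49, both with no overlap. Siglech, a surface lectin of these cells, was higher in knockout by 0.15 (SE 0.06, limma adjusted p = 0.374), also with no overlap. Tcf4 and Ccr9 differed by -0.14 and -0.002, with overlap. Of 7 measured markers of Kupffer cells and macrophages, 5 were lower in mean, and the list ran from 3.45 to 3.84 and from 3.36 to 3.59. Among these, Clec4f, a lectin of Kupffer cells, differed by -0.46 (SE 0.13, limma adjusted p = 0.214), with no overlap. Vsig4 and Marco differed by -0.35 and 0.32, with overlap, and Cd163, a macrophage receptor, did not pass the filter. Adgre1, Cd68, Csf1r and Timd4 differed by -0.10, -0.06, -0.04 and 0.04, also with overlap, and the median of the list was -0.06. The 7 neutrophil markers ran from 7.05 to 7.41 and from 7.27 to 7.28, the 6 erythroid markers from 6.53 to 7.22 and from 7.15 to 7.22, and the 5 endothelial markers from 2.25 to 2.61 and from 2.23 to 2.30. The part of these cell types in the Oas values was not tested. Markers of pancreas, 8 of 12 measured, ran from -1.97 to 3.36 over the wild-type arrays, with wild-type 3 and 4 high, and from -1.45 to -1.22 over the knockout arrays. Without wild-type 3 and 4 the family median was -0.90 and no Oas probe passed after adjustment, where 0.0504% of all probes passed and were lower.

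The sex-linked genes differed between arrays. Xist, expressed from the inactive X chromosome of females, was well above background on knockout 1, 2 and 4 and on no wild-type array. The Y-linked gene Ddx3y was well above background on wild-type 1, 2 and 4 and on knockout 3 and 4, so that knockout 4 carried both and wild-type 3 neither. The Xist level of knockout 4, 0.12, lay between 1.75 in knockout 2 and -6.55 in knockout 3. Its Ddx3y level, 2.06, lay between -7.22 in knockout 2 and 2.56 in knockout 3. Knockout 4 is also the knockout array described above as close to a weighted sum of the others. Wild-type 4, the wild-type array so described, had a Ddx3y level of 1.65, between -7.42 in wild-type 3 and 2.46 in wild-type 2. Whether either array holds RNA of a single pup was not tested. The Oasl1 level was 0.90, 1.23 and 1.10 in knockout 1, 2 and 4, which had Xist, and 0.90 in knockout 3, which did not. With the level of Xist as a covariate, Oasl1 differed by -1.46 (limma adjusted p = 0.117), the family median was -0.94 and no Oas probe passed, where 0.0622% of all probes passed and were lower. Every array with a high Xist level was a knockout, so the Xist fit cannot cleanly separate Xist from genotype. Among the knockouts, only knockout 3 lacked Xist, and the adjustment rests mainly on that array. The larger differences in the Xist fit are therefore not estimates freed of sex, and the part of sex in the Oas values was not tested. With Ddx3y as a covariate, Oasl1 differed by -1.32 (limma adjusted p = 0.0256). The sample labels do not give the position on the slide. As read from a suffix of the scan names, each genotype lay in its own column, and the column and the genotype cannot be told apart.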

How the data were processed

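Cy3-labelled liver RNA was read on 8 single-colour Agilent arrays. The authors deposited scanner files that give each spot's intensity on a linear scale, and a log2 value table of 27084 probes. The submitters' processing notes name Agilent Feature Extraction 10.10 and limma. The table was used as an alternative only, after quantile normalization between arrays was applied to it here.

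Here, control and outlier-flagged spots were left out, spots of a probe were averaged, and 87 probes lacking a spot on some array were dropped. Processed signals were taken to log2 and shifted by the 75th percentile of their array. Probes well above background on at least 4 of 8 arrays (33752 of 55681) entered 1 limma fit (version 3.58.1, lmFit then eBayes, in R 4.3.3), two-sided, without covariates, with Benjamini-Hochberg adjustment over all of them and a threshold of 0.05. The fit was tested on simulated data. Single probes were also tested by exact permutation. Pathway genes were read through the measured probe with the highest mean. Names were updated through a RefSeq table (27235 probes by accession, 565 by synonym).

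Named were all family probes, all genes of the downstream, sensor and receptor lists, up to 4 genes with the smallest p of each other list, and the 8 genes most like the family. The members and lists were chosen with earlier results of these data known; the marker genes named were chosen after their values were seen. Some other listed genes are not reported here. Same-numbered arrays did not deviate together (r from -0.10 to 0.05), so the numbers were not treated as pairs. Alternatives covered scaling, background correction, filter, probe choice, variance model, block, covariates and arrays left out.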

Additional observations from a re-analysis of the deposited data

Results flagged for a closer look

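In 26 groups of 4 arrays, 13 measured Oas probes in each genotype, 2 arrays stood far from the other 3 of their group. Chance alone flags about 1 in 20 such groups, so 2 of 26 is close to the share that chance gives. The Oas2 probe in knockout 1 had a log2 level of 1.38, against 1.92 to 1.98 in the other knockout arrays. The Oas1b probe A_55_P1959061 in knockout 2 had a level of 2.96, against 3.23 to 3.27.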

How the results depend on the processing

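None of the measured Oas probes changed direction in the 23 alternatives. Compared with 1 Oas probe called lower, 4 were called with normexp background correction and with normexp and quantile normalization. The same number was called with the deposited value table, quantile-normalized here, and with a trended robust variance. Each time these were Oas1a A_55_P1998943, Oas1b A_55_P1959064, Oas1c and Oasl1. Over all probes, calls lower went from 59 to 149, 141, 133 and 158 in these settings. The count was 0 without both replicate 4 arrays, without wild-type 3 and 4, without knockout 3 and 4, and with Xist as a covariate, and 0 to 3 with 1 array left out. No Oas probe was called higher under any alternative. The family median of -0.71 moved to -0.90 without wild-type 3 and 4 and to -0.94 with Xist as a covariate, and ran from -0.81 to -0.61 with 1 array left out. As described above, the fit with Xist cannot cleanly separate Xist from genotype. Oasl1 passed in 15 of 23 alternatives, with adjusted p from 0.00142 to 0.206 and differences from -1.46 to -1.22. With the replicate number as a block, 1 Oas probe was called, Oasl1, at an adjusted p of 0.0303. The 2 pathway genes called lower became 0 with that replicate block and 0 without both replicate 4 arrays, and 0 to 4 with 1 array left out. Over all probes, 59 called lower became 11 and 10 called higher became 0 without both replicate 4 arrays. With 1 array left out these ran from 26 to 87 and from 0 to 26. The block gave 25 lower and 1 higher over all probes. Fewer arrays leave fewer degrees of freedom. With 1 array left out, all probes called lower numbered 87 without wild-type 1 and 26 without knockout 4. The causes of these changes were not tested. Dim probes such as Oas1d and Oas1e limit what can be seen there.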
